A study of Mus musculus with 629 samples.

Results

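The 10 integrin subunit genes Itgam, Itgb2, Itgal, Itga4, Itga6, Itga9, Itgav, Itgb1, Itgb3 and Itgb5 were examined in brain macrophages and microglia. They were taken by name from the deposited count table, which held all 10 among 53546 gene symbols. An integrin is a pair of an alpha and a beta subunit that crosses the cell membrane and couples the matrix, or a partner on another cell, to the actin skeleton. The alpha subunit largely sets what is bound, and talin and kindlin, which attach to the tail of the beta subunit, switch the pair to its binding form. In the brain, CD11b, the product of Itgam, is a standard surface label of microglia, and alpha v integrins are known for binding vitronectin and for releasing active TGF-beta.

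The cells came from brains of adult C57BL/6 mice of 3 Notch3 genotypes, knockout (KO), heterozygous (Het) and wild type (WT). Per the labels, all genotypes carried the reporter SM22-Cre;Rosa26-stop-tdTomato, in which a smooth muscle promoter drives Cre, and single cells were sorted by fluorescence into 384-well plates for full-length SMART-seq2 sequencing. The sources used here do not say which reporter state the sorted macrophages and microglia had. The macrophages numbered 119 KO, 70 Het and 211 WT cells, and the microglia 78 KO, 58 Het and 79 WT cells, of 629 cells in all. Another 14 cells had a type named only 7. No label named an animal, so a genotype within a cell type counts as 1 sample, and no test or p-value is given. The cells of 1 type, 1 genotype and 1 plate are called a pool. There were 8 pools per cell type, of 15 to 138 cells, and the spread between pools is the only spread available. It may be technical.

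Levels are CPM (counts scaled to a common total), taken on a total without Rn18s, the 18S ribosomal RNA, which took 16.4% to 56.4% of the gene counts of a pool. The median total per cell was 197196 counts in macrophages and 246554 in microglia. Ratios are log2 of CPM + 1, and intervals are exact 95% intervals that cover counting error only, since reads without molecular identifiers can be PCR copies. Notch3 had 2 counts in KO, 0 in Het and 77 in WT macrophages, the 77 all in 1 cell, and 1 count in each genotype of microglia, so it is no check of the genotype labels in these cells. In macrophages, each of 16 markers of perivascular macrophages lay above its microglia level, at a median log2 ratio of 1.17. Their summed level was 32224 to 42440 CPM in macrophage pools and 10551 to 20076 CPM in microglia pools. None of the 16 microglia markers was higher in macrophages, where their sum was 16633 to 27693 CPM, against 52184 to 89470 CPM in microglia pools. Each class thus held RNA of marker genes of the other, to an extent that varied by gene. Of the microglia markers, Tmem119 had the widest ratio, at 73.1 CPM in macrophages, against 5884 CPM in microglia. Fcrls had the narrowest, at 4571 CPM in macrophages, against 5658 CPM in microglia. The cell type labels were probably made from these same counts, so ratios between the types describe the labelled classes.

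The comparison of macrophages with microglia asks which integrins the labelled classes carry. Itgb5, Itgam, Itga6, Itgb2 and Itgb3 were lower in macrophages, by log2 ratios of -2.08, -1.74, -1.33, -1.05 and -4.15, and none of the 10 was called higher in macrophages. A gene was called when the summed levels differed at least 2-fold and all 8 pools lay on the same side of the microglia pool of their own genotype and plate. By that rule 4.3% of the 7088 genes of at least 20 CPM in either type were higher in microglia and 1.68% higher in macrophages. The median log2 ratio of those genes was 0.04. For the 5 called integrins the macrophage pools did not overlap the microglia pools. The share of all genes without such overlap is not given here, so this only describes these 5 genes. Itgav was lower in macrophages in 7 of 8 pools, Itga4 and Itgal were higher in 6 of 8, and Itgb1 and Itga9 were higher in 3 and 2 of 8.

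**Figure D1:**
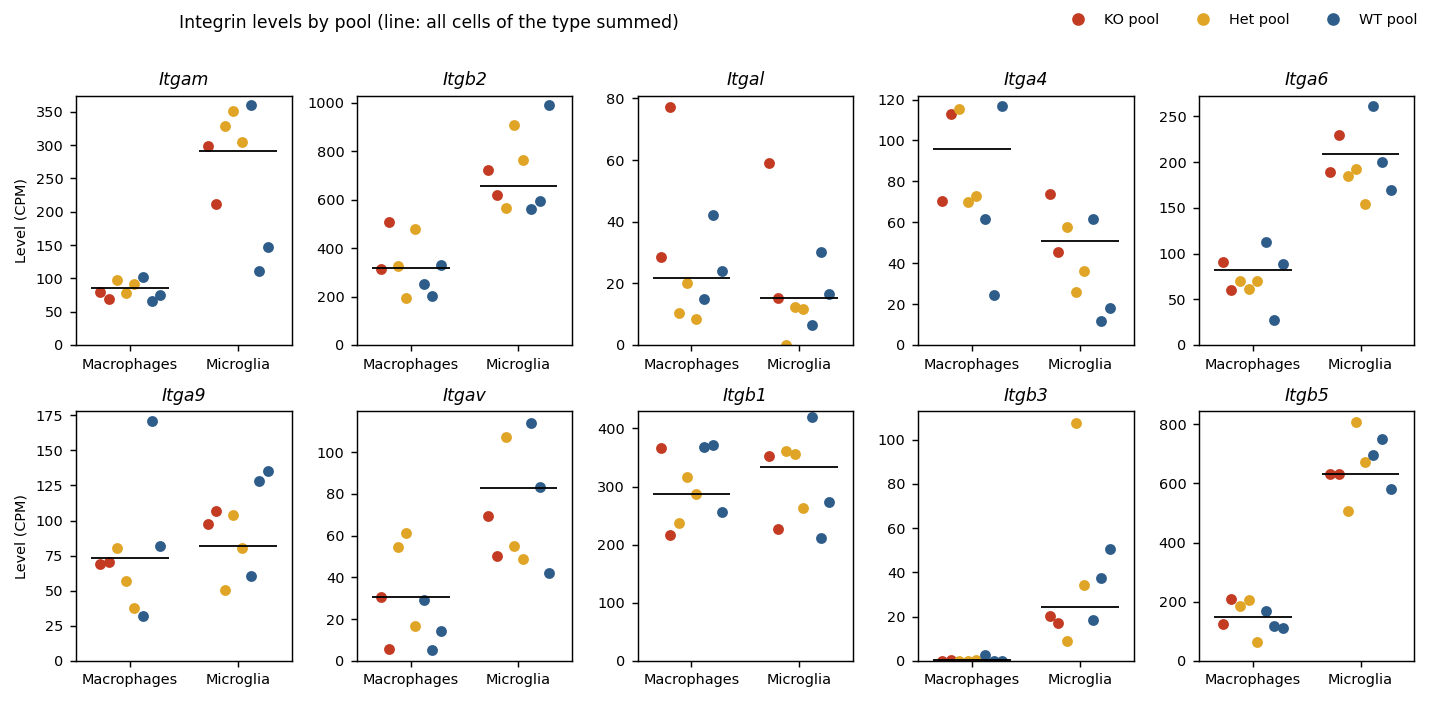
Level of each integrin gene in CPM (vertical axes, each from 0) in the 8 macrophage pools and the 8 microglia pools, coloured by genotype, with a line at the level of all cells of the type summed. The pools of Itgam, Itgb2, Itga6, Itgb3 and Itgb5 separate the cell types, and those of the other 5 genes overlap.

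The 300 bases around the annotated start are shown for Itgb5 and Itgam, which were lower in macrophages in every pool, and for Itga4, whose summed level was higher there. Sequences are from RefSeq (build GRCm38.p6, plus strand, 250 bases before to 50 bases after the start), which held 6 of the 10 genes. Capitals mark GAGGAA, a purine core of the kind bound by PU.1, a myeloid transcription factor, and the GC box GGGCGG, each on either strand, so TTCCTC and CCGCCC count too.
Itgb5, chr16:33829415-33829714: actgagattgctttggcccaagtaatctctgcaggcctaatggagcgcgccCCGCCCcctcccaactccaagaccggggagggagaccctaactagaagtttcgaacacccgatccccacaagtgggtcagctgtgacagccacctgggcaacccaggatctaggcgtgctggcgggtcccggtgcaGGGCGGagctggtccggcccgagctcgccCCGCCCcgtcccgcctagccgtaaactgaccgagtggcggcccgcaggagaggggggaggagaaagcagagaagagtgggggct
Itgam, chr7:128062390-128062689: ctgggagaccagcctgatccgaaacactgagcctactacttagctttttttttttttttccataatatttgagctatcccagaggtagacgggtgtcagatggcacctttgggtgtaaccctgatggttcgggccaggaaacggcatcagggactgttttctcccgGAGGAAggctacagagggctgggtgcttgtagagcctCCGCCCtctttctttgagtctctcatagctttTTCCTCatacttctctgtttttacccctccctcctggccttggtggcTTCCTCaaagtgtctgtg
Itga4, chr2:79255176-79255475: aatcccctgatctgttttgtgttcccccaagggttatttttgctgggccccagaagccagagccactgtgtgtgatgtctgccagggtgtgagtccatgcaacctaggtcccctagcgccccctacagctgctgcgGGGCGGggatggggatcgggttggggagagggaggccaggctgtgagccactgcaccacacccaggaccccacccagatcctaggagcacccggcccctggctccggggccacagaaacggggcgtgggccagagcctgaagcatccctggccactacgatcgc
The Itgam window held the purine core 3 times and the GC box 1 time. The Itgb5 window held no purine core and 3 GC boxes, and the Itga4 window no purine core and 1 GC box. Among 32851 promoters of the same length, 28.3% held the purine core and 35.7% the GC box. Of the windows not printed, Itgav held the purine core 2 times and Itgb1 1 time, while Itga9 held neither motif. No matches overlapped in the printed windows. A match is a run of letters and no evidence of binding.

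The beta 2 integrins are the leukocyte integrins. Itgam codes for CD11b, which with the shared subunit CD18, from Itgb2, forms Mac-1, the complement receptor that takes up particles coated with iC3b. Itgam had a lowest, median and highest pool of 65.9, 78.9 and 102 CPM in macrophages, against 111, 302 and 359.7 CPM in microglia. The highest macrophage pool lay below the lowest microglia pool, which came from WT cells of plate 529s. The summed levels were 86.3 CPM (84.6 to 88.0) in macrophages, against 291 CPM (287 to 295) in microglia, 3.34-fold lower in macrophages. Pool ratios ran between -2.15 and -0.74 on the log2 scale (SD 0.48, n = 8 pools). Itgam shares exon positions with the annotated gene Gm49368, and Itgax and Itgad are near relatives. Itgax and Itgad stood at 0.0516 and 1.26 CPM in macrophages, against 2.28 and 0 CPM in microglia.

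Itgb2 had pools of 195, 319 and 506 CPM (lowest, median, highest) in macrophages, against 560.1, 671 and 990.4 CPM in microglia. The pools did not overlap, yet the gap was narrow and the summed ratio, -1.05, lay just past 2-fold. Its pool ratios had an SD of 0.60. Itgb2 was the called integrin nearest the limit, and it fell short of 2-fold when TMM factors set the scale or when the cell of most counts was taken from each pool.

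Itgal codes for the alpha subunit of LFA-1, the receptor for ICAM-1 on T cells and other leukocytes. It was sparse in both types, with pools of 8.56, 22.2 and 77.1 CPM in macrophages, against 0.124, 13.7 and 59.0 CPM in microglia. The pools overlapped almost fully. A single cell gave 31.4% of its counts in microglia and 9.00% in macrophages. Lymphocyte markers summed to 284 CPM in macrophages, against 118 CPM in microglia, nearly all of it Cd4, which macrophages also express, at 278 CPM in macrophages, with 118 CPM in microglia. Of the 10 lymphocyte genes, 2 were at 0 in macrophages and 4 in microglia, and their part in the Itgal level was not tested.

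Itgb1 codes for the most widely shared beta subunit, the partner of many alpha chains that bind laminin, fibronectin and VCAM-1. It had pools of 217, 302 and 371 CPM in macrophages, against 211, 313 and 419 CPM in microglia. The pools overlapped from end to end, and the summed ratio was -0.21, with macrophages higher in 3 of 8 pools. Its ratio stayed between -0.29 and -0.03 over 18 alternative settings of the processing.

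Itga6, the alpha subunit of the laminin receptors, was the one partner of Itgb1 called lower in macrophages. Its pools were 27.5, 69.8 and 112 CPM in macrophages, against 155, 191 and 261 CPM in microglia. No pool overlapped. The fold was 2.52 in the sums, and the pool ratios ran between -2.82 and -0.93, the farthest being WT cells of plate 529s.

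Itga4, which with Itgb1 forms VLA-4, the receptor for VCAM-1 and fibronectin, had the highest ratio of the 10. Its pools were 24.4, 71.5 and 117 CPM in macrophages, against 11.8, 40.7 and 73.9 CPM in microglia. The pools overlapped, and 2 of 8 pairs had microglia higher by a small margin, the lowest log2 ratio being -0.07. The summed ratio was 0.91. Its microglia level was 50.6 CPM, in cells that also held macrophage marker RNA. In the 565 cells left when 50 microglia with a macrophage marker sum above the 10th percentile of macrophages were taken out, the ratio was 1.13 and Itga4 was called higher in macrophages. Only microglia were taken out, by markers that include Mgl2, the gene nearest Itga4 over the pools. A gene that follows these markers can gain in ratio through that choice of cells alone. The part of macrophage RNA in the Itga4 level of microglia was not tested. Itga4 shares exon positions with Cerkl.

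Itga9, whose pair with Itgb1 binds tenascin and osteopontin, was not called. Its pools were 31.7, 69.7 and 171 CPM in macrophages, against 50.6, 101 and 136 CPM in microglia. The pools overlapped and the summed ratio was -0.16, with macrophages higher in 2 of 8 pools and a median pool ratio of -0.66. On the mean of the cells' own CPM the ratio was -0.61, and in the same 565 cells it was 0.02, the only sign to turn among the 10 genes in the 18 settings.

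The alpha v integrins bind proteins with an RGD motif, such as vitronectin. Itgb5 codes for a beta partner of alpha v and had pools of 64.4, 147 and 209 CPM in macrophages, against 508, 652 and 807 CPM in microglia. The highest macrophage pool was far below the lowest microglia pool. The summed levels were 149 CPM (147 to 151) in macrophages, against 633 CPM (628 to 639) in microglia, which is 4.23-fold lower in macrophages, and the pool ratios had an SD of 0.61. In every setting its ratio lay between -2.32 and -1.94.

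Itgav, the alpha chain itself, had pools of 4.95, 23.0 and 61.1 CPM in macrophages, against 42.1, 62.3 and 114 CPM in microglia. The pools overlapped. The Het pool of plate 524s was the exception to the lower level of macrophages, with a log2 ratio of 0.14, and the ratio of the sums was -1.41. Itgav was called without plate 524s, without the top cell of each pool and in the 565 cells above. Its exons overlap those of Gm13684.

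Itgb3 is the partner of alpha v in the vitronectin receptor and of the platelet alpha subunit Itga2b. It was close to absent in macrophages, with 51 counts in 9 of 400 cells, and 84.3% of those counts were in 1 cell. Its macrophage pools ran between 0 and 2.41 CPM with a median of 0.0664, against 8.75, 27.3 and 107 CPM in microglia. None of the pools overlapped. In microglia 46 of 215 cells had a count, so its 24.5 CPM came from a minority of cells. The summed log2 ratio of -4.15 depends on the 1 CPM added and was -2.44 with 5 CPM added. Itgb3 was not called with Rn18s in the total, nor without the top cell of each pool. The 8 platelet markers summed to 946 CPM in macrophages, against 501 CPM in microglia, most of it Pf4, which macrophages also express, at 940.0 CPM in macrophages, against 451 CPM in microglia. Of the rest, Gp9 stood at 0.335 CPM in macrophages, against 32.2 CPM in microglia, Itga2b at 1.17 CPM in macrophages, with 9.75 CPM in microglia, and Ppbp at 4.08 CPM in macrophages, with 4.35 CPM in microglia, while Gp6 was at 0 in both. Their part in the Itgb3 level was not tested.

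**Figure D2:**
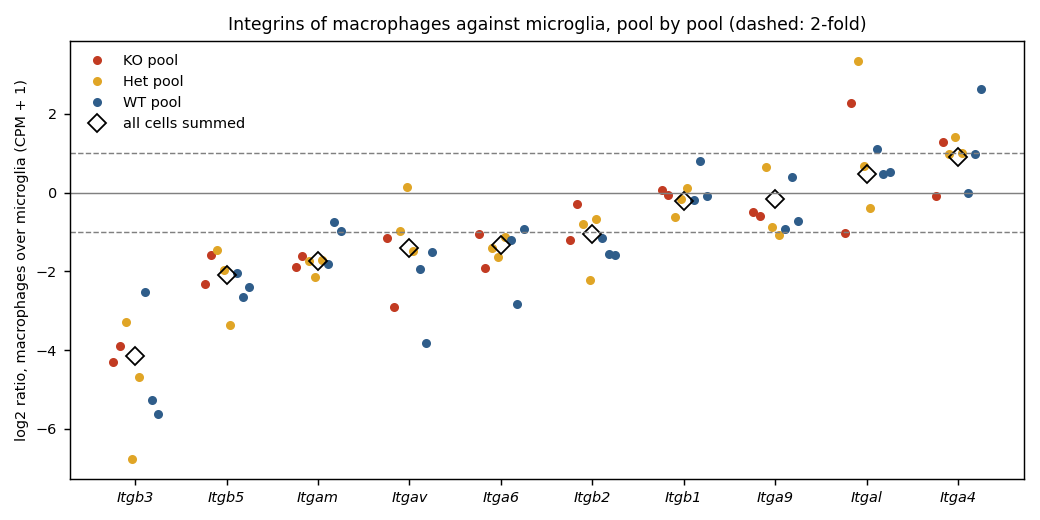
Log2 ratio of macrophages over microglia (CPM + 1, vertical axis) for each integrin gene, ordered by the ratio of all cells summed (diamonds), with 1 point for each of the 8 pools coloured by genotype. All points of Itgb3, Itgb5, Itgam, Itga6 and Itgb2 lie below 0, and those of Itgb1, Itga9, Itgal and Itga4 lie on both sides.

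Read counts rise with transcript length, so the subunits were ranked by CPM per kilobase of the union of their exons in GENCODE M21. In macrophages the order of levels per length was Itgb2 (104), Itgb1 (70.3), Itgb5 (41.9), Itgam (17.2), Itga9 (9.56), Itga6 (9.14), Itga4 (6.85), Itgal (3.29), Itgav (2.84) and Itgb3 (0.0743). In microglia it was Itgb2 (215), Itgb5 (178), Itgb1 (81.6), Itgam (57.9), Itga6 (23.2), Itga9 (10.7), Itgav (7.70), Itgb3 (4.16), Itga4 (3.62) and Itgal (2.31). In both types the beta subunits Itgb2, Itgb1 and Itgb5 led, and every alpha subunit was lower per length than those. Between neighbours in the macrophage order, Itgav over Itgb3 was the only step that held in 8 of 8 pools, and Itgb2 over Itgb1 held in 5 of 8. In the microglia order, Itgb5 over Itgb1, Itgb1 over Itgam and Itga6 over Itga9 held in 8 of 8 pools, and Itgb2 over Itgb5 in 6 of 8. With the longest transcript as the length, 5 of the 10 ranks moved in macrophages, where Itga6 came above Itgam and Itgav above Itgal. In microglia 4 moved, with Itgav above Itga9 and Itga4 above Itgb3.

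Single cells differed widely in these genes. The median cell had 9.54 CPM of Itgb5 in macrophages, against 592 CPM in microglia, and 10.9 CPM of Itgam in macrophages, against 224 CPM in microglia. The quartiles of Itgb2 were 3.38 and 551 CPM in macrophages, against 327 and 894 CPM in microglia. Thus many macrophages had few or no counts of these genes, while most microglia had them.

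To compare shares of cells, each cell was thinned to 66287 counts, which left 353 macrophages and 200 microglia and dropped 47 and 15 shallower cells. Itgb5 was found in 53.3% of the thinned macrophages (47.9 to 58.6) and 96.5% of the microglia (92.9 to 98.6), and at full depth in 64.8% of macrophages and 97.2% of microglia. Itgam was found in 55.5% of macrophages and 93.0% of microglia, and at full depth in 59.5% of macrophages and 94.9% of microglia. Itgb2 was found in 65.7% of macrophages and 95.5% of microglia, and at full depth in 79.5% of macrophages and 97.2% of microglia. Itga6 was found in 43.9% of macrophages and 82.0% of microglia, and Itgav in 18.1% of macrophages and 52.0% of microglia. These intervals treat cells as independent, so the pools were compared too. The share was lower in macrophages than in microglia of the same genotype and plate in 8 of 8 pools for Itgb5, Itgam, Itga6 and Itgav, and in 7 of 8 for Itgb2. The ranges of the pools did not overlap for Itgb5, at 34.8% to 73.7% in macrophages and 88.4% to 100% in microglia, nor for Itgav, at 4.35% to 31.4% in macrophages and 40.0% to 60.0% in microglia. They overlapped for Itgam, Itga6 and Itgb2. Fewer macrophages than microglia also had Itgb1, 78.2% of macrophages and 90.5% of microglia, and Itga9, 31.7% of macrophages and 59.5% of microglia, in 6 of 8 pools for Itgb1 and 7 of 8 for Itga9. Itga4 was in 42.8% of macrophages and 39.5% of microglia, and Itgal in 16.7% of macrophages and 12.5% of microglia, with macrophages lower in 4 of 8 pools for Itga4 and 3 of 8 for Itgal. Itgb3 was in 0.567% of macrophages and 18.0% of microglia, and lower in macrophages in 8 of 8 pools. At full depth the shares of the remaining genes were 86.3% for Itgb1, 50.5% for Itga4, 49.8% for Itga6, 36.8% for Itga9, 25.3% for Itgav, 24.0% for Itgal and 2.25% for Itgb3 in macrophages. In microglia they were 93.0% for Itgb1, 47.4% for Itga4, 85.6% for Itga6, 66.0% for Itga9, 59.5% for Itgav, 19.5% for Itgal and 21.4% for Itgb3. A thinned macrophage had counts of a median of 4 of the 10 genes and a thinned microglia cell of 6. Macrophages also had fewer genes with a count of any kind, a median of 3402.5 per cell at full depth, against 4720 in microglia. The portion of all genes found in fewer macrophages, or without overlap of the pools, is not given here. These shares therefore only describe the 10 genes.

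Shares and levels did not go together in every gene. In thinned cells with a count, the mean level of Itgam was 153 CPM in macrophages, against 302 CPM in microglia, and that of Itgb5 was 272 CPM in macrophages, against 644 CPM in microglia. For Itgav it was 142 CPM in macrophages, against 136 CPM in microglia, while the median of the same cells was 75.4 CPM in macrophages, against 106 CPM in microglia. Itga9 had a higher level in macrophages with a count, 209 CPM, than in microglia with one, 162 CPM, but fewer macrophages had it. Itga4 had 204 CPM in macrophages with a count, against 130 CPM in such microglia.

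**Figure D3:**
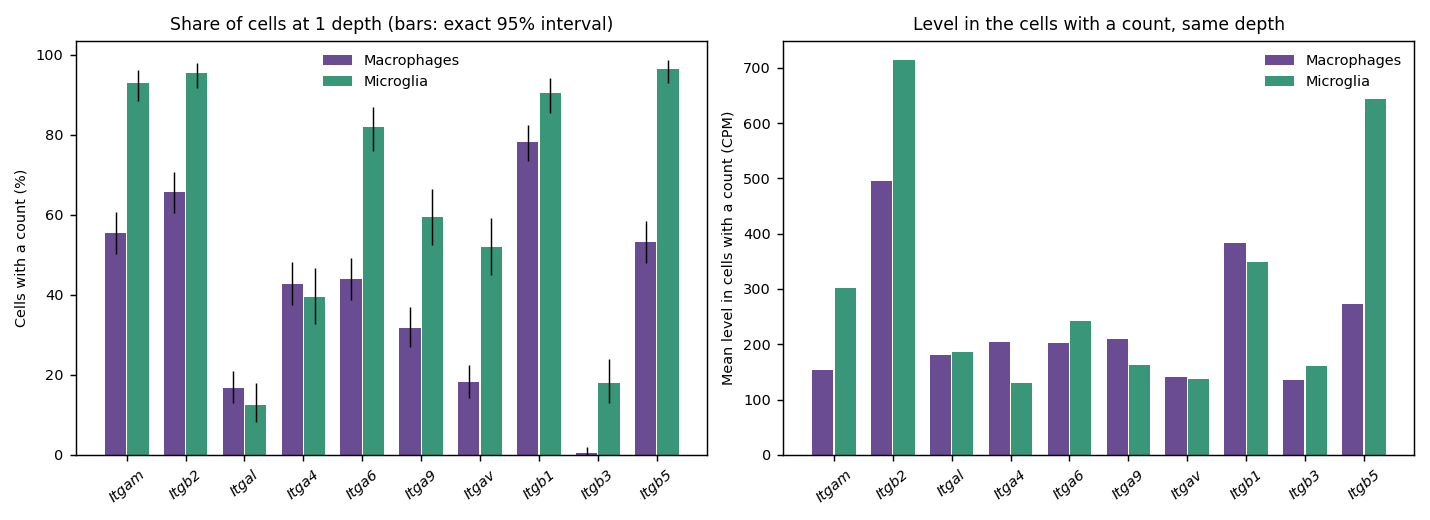
Left, share of macrophages and microglia with a count of each gene after thinning to 66287 counts (bars with exact 95% intervals for counting error). Right, mean level in CPM of the cells with a count at the same depth, with no error bar as cells are not replicates. Itgav stands at 18.1% of macrophages and 52.0% of microglia, with means of 142 CPM in macrophages, against 136 CPM in microglia, and Itgb5 and Itgam are lower in macrophages in both plots.

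An integrin needs both partners in a cell, so counts of 8 known pairs were sought in the same thinned cells. The share of a pair is bounded by the share of each subunit, so a lower pair share is no separate result about pairing. A thinned cell without a count may still hold the subunit. Both subunits of Mac-1, Itgam and Itgb2, were found in 38.2% of macrophages (33.1 to 43.5) and 88.5% of microglia (83.2 to 92.6). The laminin receptor, Itga6 with Itgb1, was found in 36.0% of macrophages and 76.0% of microglia. Each of these pairs had the lower share in macrophages in 8 of 8 pools. The ranges of the pools overlapped for Mac-1 and did not for the laminin receptor, at 21.4% to 48.6% in macrophages and 50.0% to 90.7% in microglia. VLA-4, Itga4 with Itgb1, was found in 33.1% of macrophages and 35.5% of microglia, and LFA-1, Itgal with Itgb2, in 10.5% of macrophages and 11.5% of microglia. Macrophages were lower in 4 of 8 pools for VLA-4 and 5 of 8 for LFA-1. Itga9 with Itgb1 was in 23.8% of macrophages and 54.5% of microglia. Itgav was found with Itgb1 in 13.6% of macrophages and 46.5% of microglia. It was found with Itgb5 in 10.5% of macrophages and 50.0% of microglia, and with Itgb3 in 0 of 353 macrophages and 8.50% of microglia. At this depth 0 of 353 allows a share of up to 0.850% by 3 counts, or 1.04% by the exact interval. At full depth, 5 of 400 macrophages (1.25%) and 13.0% of microglia had both. Of the 3 beta partners examined, Itgb3 was the one least often found beside Itgav in both types, and also the one least often found at all. In thinned cells its own share, 0.567% of macrophages and 18.0% of microglia, is the most that its pair could reach. The order therefore says nothing about pairing. At full depth, the Spearman correlation of partners over the cells of a pool had a median over pairs of 0.01 in macrophages and 0.02 in microglia, and of 0.02 in both for other pairs of the 10 genes. In thinned cells the medians were 0.01 in macrophages and -0.0016 in microglia for partners, and -0.01 in macrophages and -0.03 in microglia for other pairs. The highest value of a partner pair was that of Itgav with Itgb1 in microglia, a median of 0.21 over 8 pools, 7 of them positive, and 0.16 in thinned cells.

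**Figure D4:**
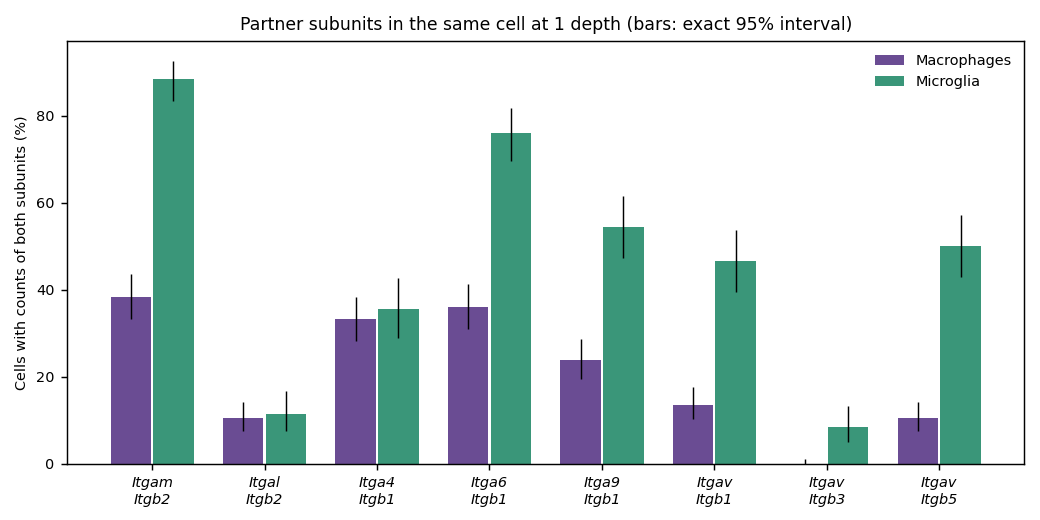
Share of thinned macrophages and microglia with counts of both subunits of each known pair (bars with exact 95% intervals for counting error). Itgam with Itgb2 stands at 38.2% of macrophages and 88.5% of microglia, while Itga4 with Itgb1 and Itgal with Itgb2 stand at like heights, and Itgav with Itgb3 stands at 0 of 353 macrophages at this depth, where 5 of 400 had both at full depth.

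The genotype comparison asks whether the integrins differ between cells of the Notch3 genotypes. It does not set cells with Notch3 RNA against cells without, since hardly any cell of any genotype had a Notch3 count. KO was called apart for a gene where it lay at least 2-fold from both Het and WT and each KO pool lay beyond every Het and WT pool. In macrophages 0 of 10 integrins were apart in KO, against 1.31% of the 7459 genes of at least 20 CPM in a genotype, and in microglia 0 of 10, against 1.03% of 7503. Het was set against WT by the same rule, and 0 of 10 were apart in macrophages, against 3.75% of 7155 genes, and 0 of 10 in microglia, against 3.47% of 7232. With 10 genes and these shares, a count of 0 is no result about the integrins. Depth differed too, with a median total per cell of 124693 counts in KO, 285909 in Het and 225315 in WT macrophages, and of 224056, 240926 and 274296 in KO, Het and WT microglia. Itgb3 was under 20 CPM in every genotype of macrophages, as was Itgal in Het and WT microglia.

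Itgal had the farthest KO values. Its KO macrophage pools had 28.5 and 77.1 CPM, against 8.56, 10.5 and 20.2 CPM in Het pools and 14.9, 24.2 and 42.2 CPM in WT pools. KO lay above all Het pools and overlapped WT. The sums were 41.1 CPM in KO, 11.0 CPM in Het and 22.7 CPM in WT, log2 ratios of 1.81 over Het and 0.83 over WT. In microglia the KO pools had 15.2 and 59.0 CPM, against 0.124, 11.6 and 12.2 CPM in Het pools and 6.38, 16.6 and 30.2 CPM in WT pools. Again KO lay above Het and overlapped WT, with log2 ratios of 2.74 over Het and 1.54 over WT, but 50.5% of the KO counts were in 1 cell. The thinned share of cells with Itgal was 21.1% of KO macrophages (13.2 to 31.0), 8.06% of Het (2.67 to 17.8) and 17.4% of WT (12.4 to 23.4). In microglia it was 12.7% in KO, 13.5% in Het and 11.7% in WT. The shares in microglia were alike where the CPM were not. Itgal was called higher in KO in macrophages without plate 060s and in microglia without plate 524s, and lower in Het than in WT macrophages without plate 059s or without plate 524s.

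Itgav in macrophages had summed levels of 24.0 CPM in KO, 52.3 CPM in Het and 18.3 CPM in WT. Its KO pools had 5.86 and 30.4 CPM, against 16.7, 54.4 and 61.1 CPM in Het pools and 4.95, 14.3 and 29.2 CPM in WT pools. The genotypes overlapped through the low Het pool, of plate 529s. The log2 ratio was -1.09 for KO over Het, 0.38 for KO over WT and 1.47 for Het over WT. It was found in 13.3% of thinned KO, 29.0% of Het and 16.9% of WT macrophages. Het was called above WT without plate 059s, without plate 529s and in thinned cells.

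Of the microglia integrins, Itgam had KO pools of 212 and 298 CPM, below the Het pools of 305, 329 and 351 CPM and inside the WT pools of 111, 147 and 359.7 CPM. Its log2 ratios were small, -0.38 over Het and -0.21 over WT. Itgb5 had 631.1 and 631.4 CPM in KO pools, against 508, 672 and 807 CPM in Het pools and 583, 698 and 749.8 CPM in WT pools. Itgb2 had ratios of 0.02 over Het and 0.03 over WT. These KO pools lay inside the range of the other genotypes for Itgb5 and Itgb2. Leaving out Itgal, Itgav and macrophage Itgb3, no log2 ratio of KO over Het or WT in either cell type went beyond the 0.67 of Itga9 over Het in microglia.

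**Figure D5:**
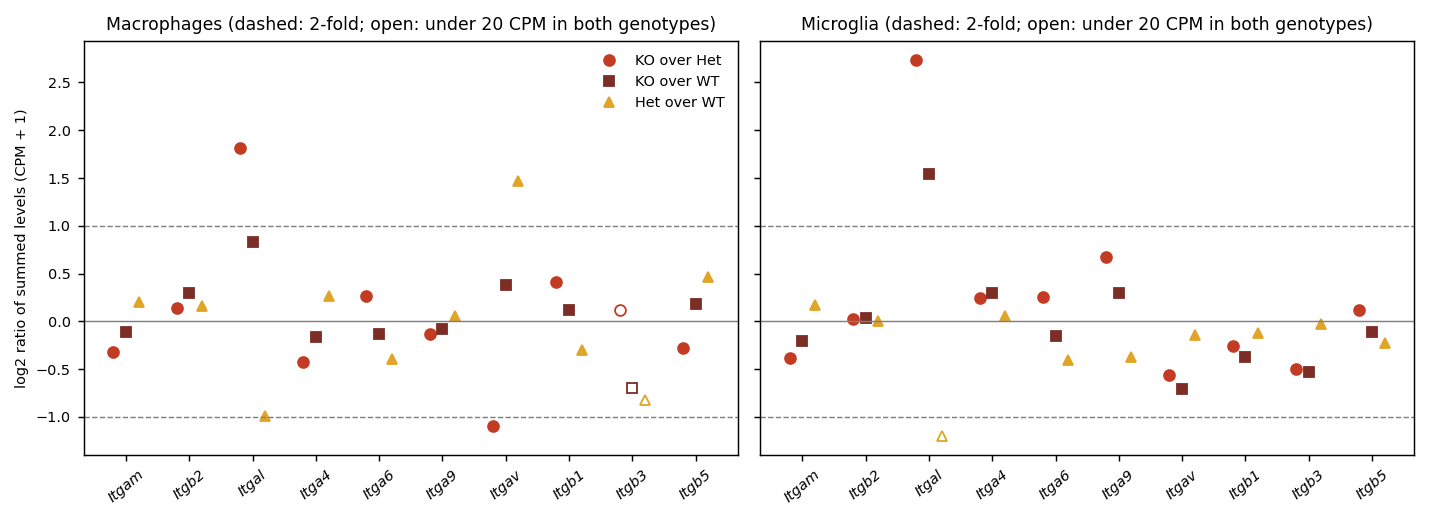
Log2 ratios of summed levels (CPM + 1, vertical axis) for KO over Het, KO over WT and Het over WT in macrophages (left) and microglia (right). Itgal and Itgav are the genes past the dashed 2-fold lines, and open symbols mark values under 20 CPM in both genotypes.

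Plate 524s held KO and Het cells and plate 529s Het and WT cells, which allows these comparisons within a plate. On plate 524s, KO macrophages had 77.1 CPM of Itgal and Het macrophages 20.2 CPM, a log2 ratio of 1.88. On that plate Itgb2 had 506 CPM in KO and 195 CPM in Het macrophages, a ratio of 1.37, and Itgav had 5.86 CPM in KO and 61.1 CPM in Het macrophages, a ratio of -3.18. In microglia of plate 524s the Itgal ratio was 0.29, and Itgb3 had 17.2 CPM in KO and 107 CPM in Het, a ratio of -2.57. Some of these values rested on few cells. In KO macrophages of that plate, 56.9% of the Itgal counts came from 1 cell, and Itgav was found in 3 cells. Itgb3 was found in 9 of 31 KO and 6 of 15 Het microglia there. Itgb2 was found in more, 20 of 21 KO and 11 of 16 Het macrophages, with 16.3% and 38.4% of the counts in the top cell. On plate 529s, Het over WT ratios in macrophages were 1.25 for Itgb2, 1.54 for Itga4 and 1.31 for Itga6, and -2.18 for Itgal and -2.14 for Itga9. Itgav had a ratio of 1.58, but its 16.7 CPM in Het and 4.95 CPM in WT were both under the limit of 20 CPM. In microglia of that plate the Het over WT ratios were 1.46 for Itgam, 1.53 for Itga4 and -1.31 for Itgal. Itgal was lower and Itga4 higher in Het on that plate in both cell types, but these values too rested on few cells. All 23 Itgal counts of the Het macrophages there came from 1 cell. Of the 15 WT microglia, 2 had a count of Itgal and 2 a count of Itga4. Of the 26 WT macrophages, 5 had a count of Itga4 and 3 a count of Itgav. No plate held KO and WT cells, so for these genotypes plate and genotype cannot be told apart.

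Of the 17 other integrin subunits, Itga5, the fibronectin receptor chain, was the only one of at least 20 CPM, at 39.0 CPM in macrophages, against 34.9 CPM in microglia, with macrophages higher in 3 of 8 pools. Itgb7, a partner of Itga4 and Itgae in gut homing, had 5.34 CPM in macrophages and 3.75 CPM in microglia. Summed, the 12 other alpha subunits had 44.9 CPM in macrophages, against 61.4 CPM in microglia, and the 5 other beta subunits 6.43 CPM in macrophages, against 5.47 CPM in microglia.

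Among 31 adaptors that switch integrins on or tie them to actin, 21 reached 20 CPM, and 2 were called lower in macrophages and 0 higher, with a median log2 ratio of -0.05. Over all genes, 4.3% were lower and 1.68% higher in macrophages. Parvg, the parvin of blood cells, which links integrin-linked kinase to actin, had 3.49 CPM in macrophages, against 335 CPM in microglia. Apbb1ip, known as RIAM, which brings talin to the membrane, had 27.6 CPM in macrophages, against 116 CPM in microglia. Talin (Tln1) had 779 CPM in macrophages, against 641 CPM in microglia, and the blood cell kindlin (Fermt3) 647 CPM in macrophages, against 821 CPM in microglia. Neither was called.

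Of 35 listed ligands, 11 reached 20 CPM. F13a1, coagulation factor XIII A, was higher in macrophages, at 3972 CPM, against 1504 CPM in microglia, and is also one of the macrophage markers. Icam1, a ligand of LFA-1 and Mac-1, was lower in macrophages, at 46.8 CPM, against 188 CPM in microglia. So were the matrix protein Npnt (nephronectin), at 1.72 CPM in macrophages, against 78.2 CPM in microglia, and Jam2, a ligand of VLA-4, at 0.766 CPM in macrophages, against 62.9 CPM in microglia. By the rule above, 3 of the 11 were called lower and 1 higher in macrophages, against 4.3% and 1.68% of all genes. The median log2 ratio of the 11 was -1.26, against 0.04 for all genes. That median was the value of Spp1, which was lower in macrophages in the sums but higher there in 5 of 8 pools. Vcam1, the ligand of VLA-4, had 222 CPM in macrophages, against 141 CPM in microglia, and was higher in macrophages in 6 of 8 pools.

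Of 12 membrane partners, 10 reached 20 CPM, with a median log2 ratio of -0.06. The tetraspanins Cd9 and Cd81, which gather integrins in the membrane, were lower in macrophages. Cd9 had 10.1 CPM in macrophages, against 348 CPM in microglia, and Cd81 had 209 CPM in macrophages, against 1977 CPM in microglia. Cd36, a scavenger receptor and also a macrophage marker of the list used here, was higher in macrophages, at 942 CPM, against 382 CPM in microglia. Nrros, which holds latent TGF-beta at the surface of these cells for release by alpha v integrins, had 1154 CPM in macrophages, against 931 CPM in microglia, and was higher in macrophages in 8 of 8 pools at a log2 ratio of 0.31, under the limit.

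The genes whose level followed each integrin most closely over the 16 pools of both types were named by Pearson correlation among 6862 genes, as a description. The points share the difference between the cell types, so a high value often restates it. Itgb5 lay nearest Cd81 (0.97), Rasal3 and F11r, and Itgam nearest Gpr34 (0.94), Mmp2 and Adamts16. Itgb3 lay nearest Spata13 (0.96), Abi3 and Cdh23, and Itga6 nearest Rgs2 (0.94), Pdgfb and Arhgap27. Itgb2 lay nearest Arhgap4 (0.92), Icam1 (0.91) and Tmem44. Icam1 codes for a ligand of the receptors that Itgb2 forms. Itgav lay nearest Mbd6 (0.90), Slc25a45 and Scoc, and Itga4 nearest Mgl2 (0.87), a macrophage marker, Pgrmc1 and Cyb5a. For the remaining genes values were lower: Itgb1 with Msl1 (0.85), Acadl and Wwc2, Itgal with Hlx (0.83), Sgpl1 and Chmp1a, and Itga9 with Fermt3 (0.81), Ube2j1 and Junb.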

How the data were processed

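Single brain cells were sequenced with SMART-seq2. The authors deposited whole-number read counts per gene and cell, without normalisation. The submitters' processing notes name STAR as a tool, without a version. The genome build, annotation, counting program, use of strand and any cell filter are not given in the sources used here. Each of the 629 columns matched a label by name, and no 2 columns were identical.

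ERCC spike-ins, 1.22% of counts, were set aside. Counts were summed per pool, cell type or genotype and scaled to CPM of the total without Rn18s, which took 40.4% of gene counts, so values are higher than those on a total that includes it. Genes of at least 20 CPM in a compared group were measured. Shares carry Clopper-Pearson and levels Poisson 95% intervals. Thinning drew each cell to the 10th percentile of depth. Limits for a count of 0 use 3 counts. No model was fitted, since no animal is named. The call rules were checked on simulated counts with planted changes larger than the 2-fold limit and no plate or animal effect. That check does not cover spread between plates or animals. Lengths and overlaps came from GENCODE M21 and promoters from RefSeq, for 6 of 10 genes. The authors' build is unknown, so gene coordinates are given only for the printed promoters.

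All 10 integrins are named, along with other subunits of at least 20 CPM, up to 6 called members of each further list (otherwise the 2 of highest level), and the 3 genes nearest each integrin. Itgax, Itgad, Itgb7, Tln1, Fermt3, Vcam1, Nrros and the platelet genes were added for their roles after values were seen. The integrins and the gene lists were chosen with earlier results of these data known. Alternatives changed the total, summing, scaling (edgeR 4.0.16 TMM, DESeq2 1.42.0 size factors, R 4.3.3), pseudocount, floor, depth, cells and plates. Python 3.11.15, numpy 2.4.6, pandas 2.3.3, scipy 1.17.1 and matplotlib 3.10.9 were used.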

Additional observations from a re-analysis of the deposited data

Results flagged for a closer look

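The 10 genes in 2 cell types gave 20 sets of 8 pools. In 3 of them the gap from the highest pool to the next, as a share of the range, passed Dixon's 95% limit. For normally distributed values that limit flags about 1 in 20 sets by chance. The rate for sparse CPM such as these is not known. Itga9 reached 171 CPM in WT macrophages of plate 529s, against 31.7 to 81.6 CPM in the other 7 macrophage pools, and 59.4% of its counts in that pool came from 1 cell. Itgb3 reached 2.41 CPM in WT macrophages of plate 059s, where 93.5% of 46 counts came from 1 cell. Itgb3 also reached 107 CPM in Het microglia of plate 524s, where 6 of 15 cells had a count and the top cell gave 42.0%.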

How the results depend on the processing

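The 5 integrins lower in macrophages became 4 to 6 over the 18 settings, and no called direction turned. It was 4 with Rn18s in the total, with TMM factors and without the top cell of each pool. Itga4 made 1 integrin higher in macrophages in the 565 cells left when 50 microglia were taken out by their macrophage marker sum. Counts apart by genotype, 0 in the main setting, rose under the settings that follow, and with fewer pools the rule is easier to meet. On 1 plate alone, 1 pool was set against 1 pool, so any measured gene past 2-fold was called. The share of all genes apart in each setting is not given here, so these counts are no result about the integrins. In KO they were 1 in macrophages without plate 060s (Itgal) and 3 on plate 524s alone, and in microglia 1 without plate 524s (Itgal) and 1 on plate 524s alone. In Het macrophages they were 1 with the mean of cells' CPM (Itgal), with thinned cells (Itgav) and without plates 524s (Itgal), 529s (Itgav) or 530s (Itga4), 2 without 059s (Itgal, Itgav), and 5 on plate 529s alone. In Het microglia they were 4 without plate 059s (Itgam and Itga4 higher, Itgal and Itga9 lower) and 3 on plate 529s alone. Counts were found in 50% of cells for 5 integrins in macrophages and for 2 when 5 counts were asked for. With Rn18s in the total, the median log2 ratio of all genes moved to -0.53 for KO over Het and 0.55 for Het over WT in macrophages. No paired analysis was possible because no test was run and replicate numbers only name cells in accession order. Pools were instead set side by side within a genotype and plate, and genotypes within plates 524s and 529s.

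Sparse genes set the limit: Itgal, Itgav and Itgb3 rested on few cells. Genotypes had 2 or 3 pools from an unknown number of animals, and KO and WT shared no plate.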

Other observations

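The 14 cells of the type named only 7 were left out of every comparison. They held 763324 counts in all, with a median of 25329 per cell. Itgb2 had 402 CPM (358 to 449.8) in these cells, Itgam 199 CPM and Itgb1 162 CPM, found in 9, 9 and 11 of the 14 cells. Itgb5 had 122 CPM, Itga6 102 CPM and Itgav 56.3 CPM, while Itga4, Itgal, Itga9 and Itgb3 had 10 to 16 counts each. A single cell gave 65.5% of the Itgb2 counts.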
